A study of Mus musculus with 56 samples.

Results

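Pituitary lineage transcription factors were measured one cell at a time in a primary culture of mouse pituitary. The 9 factors Pou1f1, Tbx19, Nr5a1, Pax7, Pitx1, Lhx3, Neurod1, Neurod4 and Gata2 were taken by name from a table of 47069 genes, and all 9 were found in it. The culture came from the anterior pituitaries of C57BL/6 female mice aged 10 to 12 weeks, with 5 pituitaries pooled for a sample, and was grown for 4 days. Cells were stabilised in RNA-Best, passed through a filter and captured on a Fluidigm C1 circuit, where each was turned into cDNA with SMART-Seq v4 together with ERCC spike-ins, synthetic RNAs of known amount. Each well of the plate holds the library of 1 captured cell. The labels give no untreated or control group and name no animal or culture to compare, so the 56 wells are cells of 1 sample and nothing was tested between them.

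Hormone cells of the anterior pituitary are told apart by the hormone they make and by the factors that drive it. Pou1f1 (Pit-1) is needed for somatotropes, lactotropes and thyrotropes, which make growth hormone (Gh), prolactin (Prl) and thyrotropin (Tshb). Tbx19 (Tpit) drives Pomc, the precursor of corticotropin, in corticotropes and melanotropes, and Pax7 sets melanotropes apart. Nr5a1 (SF-1) and Gata2 act in gonadotropes, the cells of Lhb and Fshb, and Gata2 also acts in thyrotropes. Pitx1 and Lhx3 are homeodomain factors of the whole gland, Neurod1 is a partner of Tbx19 on the Pomc promoter, and Neurod4 (Math3) is known from the maturation of somatotropes.

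The promoters of 3 genes on which the results turn are shown because these genes are known targets of the factors: Prl and Pomc, the hormones that led most wells, and Pou1f1, whose protein binds its own promoter. Each is the 250 bases before the RefSeq start on GRCm38.p6, read 5′ to 3′ on the strand of the gene. Prl lies at chr13:27057320-27057569 on the plus strand, Pomc at chr12:3954695-3954944 on the plus strand and Pou1f1 at chr16:65520262-65520511 on the plus strand. Lhb is shown only for 30 bases at chr7:45420807-45420836, also on the plus strand. Capitals mark any match, on either strand, to 1 of 7 motifs.
Prl: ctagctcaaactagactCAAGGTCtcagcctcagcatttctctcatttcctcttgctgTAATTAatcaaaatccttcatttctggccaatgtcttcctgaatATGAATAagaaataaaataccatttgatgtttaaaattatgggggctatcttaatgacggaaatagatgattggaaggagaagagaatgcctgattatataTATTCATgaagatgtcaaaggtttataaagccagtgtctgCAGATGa
Pomc: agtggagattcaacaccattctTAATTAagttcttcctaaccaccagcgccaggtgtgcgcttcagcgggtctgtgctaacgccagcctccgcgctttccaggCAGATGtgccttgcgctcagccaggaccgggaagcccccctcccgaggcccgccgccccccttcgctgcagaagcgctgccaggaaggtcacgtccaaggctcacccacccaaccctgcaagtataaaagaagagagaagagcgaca
Pou1f1: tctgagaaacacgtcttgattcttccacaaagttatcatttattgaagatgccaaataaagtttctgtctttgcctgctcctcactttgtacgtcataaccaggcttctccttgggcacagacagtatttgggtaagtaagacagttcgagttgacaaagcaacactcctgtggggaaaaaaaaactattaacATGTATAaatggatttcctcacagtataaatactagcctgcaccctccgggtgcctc
Lhb: ctggcttccctGACCTTGtctgtgtctcgc

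The motifs searched were the POU site TATNCAT, the Nr5a site CAAGGTC, the E-box CAGATG, the LIM homeodomain site TAATTA, the T-box site TCACACC, the Pitx site TAATCC and the GATA site AGATAA. Prl held 2 POU matches, at bases -47 to -41 and, on the other strand, -148 to -142 from its start. It also held the Nr5a site at -233 to -227, TAATTA at -192 to -187 and the E-box at -7 to -2. Pou1f1 held 1 POU match at -57 to -51, and Lhb held 1 Nr5a match at -128 to -122, each on the minus strand. Pomc held the E-box at -147 to -142 and TAATTA, which reads the same on both strands, at -228 to -223. It held no match to the T-box or Pitx site, and bases farther from the start were not searched. Among 32851 mouse promoters cut to the same length, the POU site was found in 7.92%, the Nr5a site in 3.32%, the E-box in 14.4%, TAATTA in 4.84%, the T-box site in 3.33%, the Pitx site in 6.25% and the GATA site in 9.99%. These matches describe letters only. The genes themselves lie, on GRCm38, at chr16:65520511-65535005 (Pou1f1), chr1:165137855-165160773 (Tbx19), chr2:38692656-38714542 (Nr5a1), chr4:139737062-139833528 (Pax7), chr13:55825051-55836192 (Pitx1), chr2:26200212-26208289 (Lhx3), chr2:79452521-79456751 (Neurod1), chr10:130268152-130280240 (Neurod4) and chr6:88193891-88207032 (Gata2). Pou1f1 and Gata2 are on the plus strand and the other 7 on the minus strand. Promoters were matched for 7 of the 9 factors and for 6 of the 7 hormone genes, and Nr5a1, Pitx1 and Gh had none.

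Levels are counts for every 1000000 gene counts (CPM), with the spike-ins left out. Of the 56 wells, 46 held 100000 or more gene counts and were used, with 111195 to 12563266 gene counts and a median of 1192620. The spike-in share of their counts ran from 0.144% to 66.1%. A well was named by its leading hormone, the highest in CPM of Prl, Gh, Tshb, Pomc, and Lhb plus Fshb. Prl led in 37 wells, Pomc in 5 and Gh in 4, while no well was led by Tshb or by the gonadotropins. The groups differed in depth, with medians of 862979 gene counts in Prl-led wells, 3945964 in Gh-led and 5298575 in Pomc-led wells. Wells of plate columns 1 to 3 and 7 to 9 (29 wells) and of columns 4 to 6 and 10 to 12 (17 wells) are given apart where they differed. The labels say nothing of what sets these columns apart. Receptors that mark the lineages were sparse, with Crhr1 in 10 wells, Ghrhr and Gnrhr in 3 each, Drd2 in 1, and Trhr and Avpr1b in 0, so the wells are called by their hormone and not by a cell type.

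Detection was set at 1 CPM. In a well with fewer than 1000000 gene counts a single count passes this limit, so the higher limits of 10 and 100 CPM are given beside it. Pou1f1 was the most widely found of the 9, in 42 of 46 wells (91.3%, exact 95% interval 79.2 to 97.6). Neurod4 followed with 36 wells (78.3%, 63.6 to 89.1) and Pitx1 with 27 (58.7%, 43.2 to 73.0). The factors of the other lineages were found in fewer wells, Tbx19 in 14 (30.4%, 17.7 to 45.8), Nr5a1 in 6 (13.0%, 4.94 to 26.3), Pax7 in 3 (6.52%, 1.37 to 17.9) and Gata2 in 1 (2.17%, 0.0550 to 11.5). Neurod1 was found in 15 wells (32.6%, 19.5 to 48.0) and Lhx3 in 11 (23.9%, 12.6 to 38.8). Intervals here cover counting error only, since PCR reads without molecular identifiers are not independent molecules.

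At 10 CPM, Pou1f1 and Neurod4 were left in 28 and 27 wells, Pitx1 in 13, Tbx19 in 10, Lhx3 and Neurod1 in 6 each, Pax7 in 2 and Nr5a1 in 1. At 100 CPM the order changed, with Pou1f1 in 18 wells, Neurod4 in 10, Lhx3 in 3, Tbx19 in 2 and Neurod1 in 1. Pitx1, broad at the low limit, was in 0 wells at 100 CPM, and its highest level was 37.9 CPM in well D10. When every well was thinned to 100000 gene counts, Pou1f1 was above the limit in 32 wells, Neurod4 in 28, Pitx1 in 18, Tbx19 in 11, Neurod1 in 10, Lhx3 in 8, Nr5a1 and Pax7 in 2 each and Gata2 in 1. Pitx1 was found at 10 CPM in 4 of 29 wells of the first set of plate columns and in 9 of 17 of the second. Spearman's rho with the gene counts of the well was -0.47 for Pitx1 and 0.45 for Lhx3 (46 wells).

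**Figure D1:**
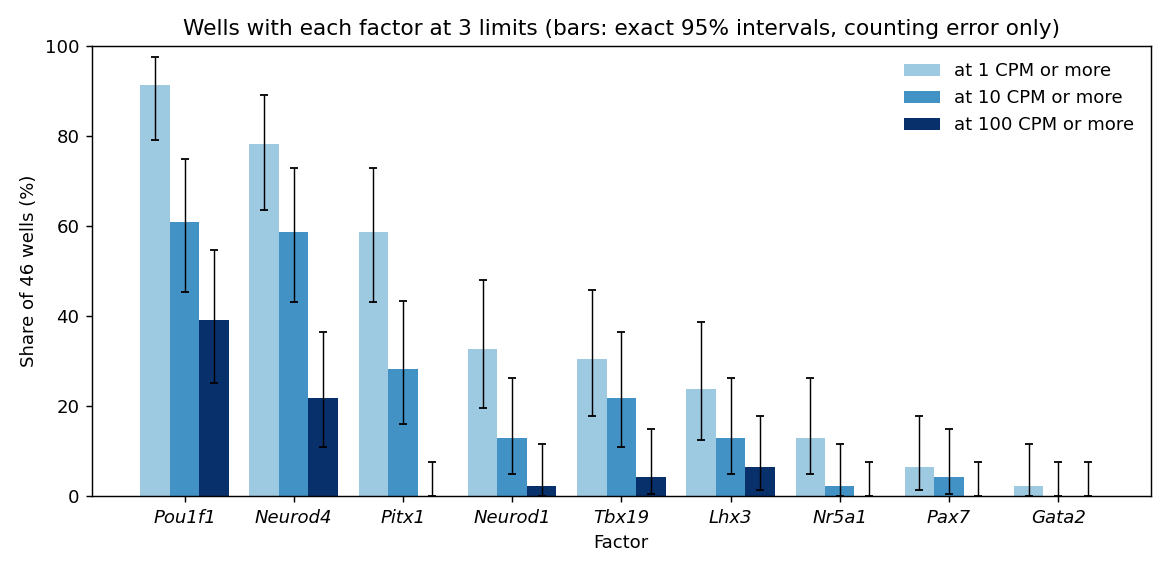
Share of the 46 wells (y axis, percent) in which each of the 9 factors (x axis) stood at 1, 10 or 100 CPM or more, with exact 95% intervals as error bars. Pou1f1 was in 42 wells at 1 CPM and 18 at 100 CPM, and Pitx1 in 27 and 0.

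Well H4 was set beside the others because it carried endothelial markers, which hormone cells should lack. They stood at a summed 8855 CPM, the highest of all wells, with Prl at 14379 CPM, in a deep library of 4033125 gene counts. Pou1f1 stood there at 1.74 CPM on 7 counts, and the other 8 factors had 0 counts, Gata2 included, which endothelial cells can also express. By counting error alone, a count of 0 in this well allows a level of up to 0.744 CPM. Apart from H4 itself, 4 wells had Pou1f1 between 1 CPM and this level, namely B2, D10 and F11, led by Pomc, and F4, led by Gh, and 37 wells lay above it. The counts below at 1 CPM include such levels, and where a result rests on them the count above the level of H4 is given beside it. These counts were chosen after seeing the data. Well F6, led by Prl, also had 4 of 5 endothelial markers at 100 CPM or more, as H4 did, at a summed 979 CPM. Pou1f1 stood in F6 at 281 CPM on 1171 counts, so the level in H4 is that of 1 well.

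Between genes, levels were compared only per exon length (TPM). Mean TPM over the 46 wells was 55.7 for Neurod4, 51.5 for Pou1f1, 27.2 for Tbx19, 9.75 for Lhx3, 6.23 for Neurod1, 4.58 for Pitx1, 0.403 for Pax7, 0.378 for Nr5a1 and 0.0670 for Gata2. The first neighbours in this order were not apart in the same direction in every well, since Pou1f1 was above Neurod4 in 33 wells and below it in 12. Medians in TPM were 9.72 for Pou1f1, 6.03 for Neurod4 and 2.42 for Pitx1. The mean of Tbx19 rests on few wells, and its median was 0, as were those of Lhx3, Neurod1, Nr5a1, Pax7 and Gata2.

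**Figure D2:**
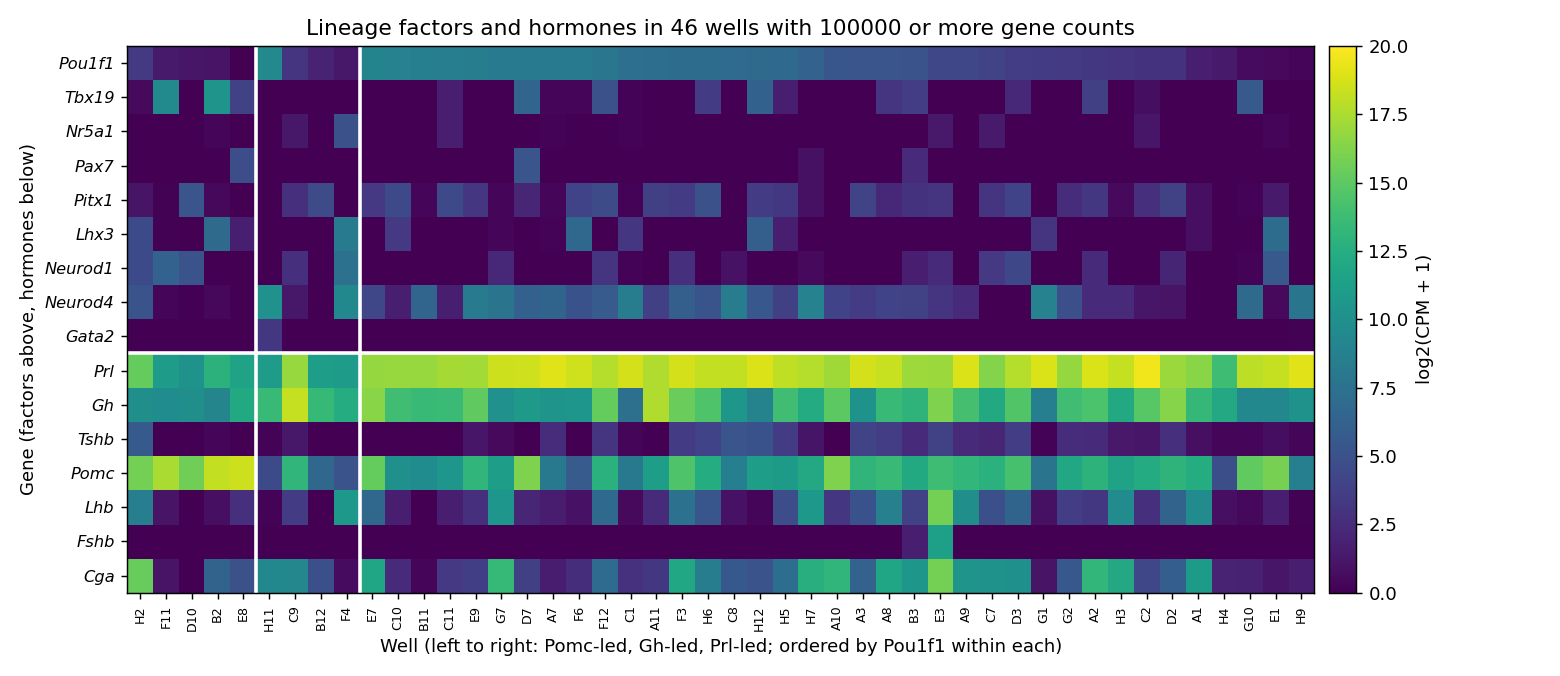
Level of the 9 factors and 7 hormone genes (y axis) in each of the 46 wells (x axis), coloured by log2(CPM + 1) and ordered by leading hormone and then by Pou1f1. Prl and Gh were seen in all 46 wells, while Tbx19, Nr5a1, Pax7, Lhx3 and Neurod1 were high in few.

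Pou1f1, the factor of the Prl, Gh and Tshb lineages, was found in 38 of the 41 wells led by Prl or Gh (92.7%, 80.1 to 98.5), and above its level in H4 in 36 of them (87.8%, 73.8 to 95.9). In the 37 Prl-led wells its level ran from 0.281 to 522 CPM with a median of 39.2. That median was 18.5 CPM in the 25 Prl-led wells of the first set of plate columns and 140 CPM in the 12 of the second. In the 4 Gh-led wells Pou1f1 was 695 CPM in H11, 7.37 in C9, 2.84 in B12 and 1.41 in F4, so 3 of the 4 stood below 10 CPM. Well H11 held the highest Pou1f1 of all wells, and also the highest Neurod4, Gata2 and Ghrhr, the receptor for growth hormone releasing hormone, at 14.2 CPM. In the 5 Pomc-led wells Pou1f1 was 9.63 CPM in H2, 1.69 in F11, 1.32 in D10, 1.13 in B2 and 0 in E8. At 10 CPM it was present in 27 of 37 Prl-led wells, 1 of 4 Gh-led wells and 0 of 5 Pomc-led wells, and the low end of the Prl-led wells overlapped with both other groups.

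Wells with Pou1f1 at 100 CPM or more had a median Prl of 282642 CPM (18 wells) against 132899 in the other 28, and a median Gh of 12409 against 5174. Their median Pomc was 2069 CPM against 8602. All 3 ranges overlapped widely. Across wells, rho between Pou1f1 and Prl was 0.22, between Pou1f1 and Gh 0.30 and between Pou1f1 and Pomc -0.29 (46 wells that share 1 culture and differ in depth). Spearman's rho with the gene counts of the well was -0.73 for Gh and -0.34 for Pou1f1.

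Tbx19, the Pomc lineage factor, was found in 3 of 5 Pomc-led wells (60%, 14.7 to 94.7), 11 of 37 Prl-led wells and 0 of 4 Gh-led wells. It stood at 1289 CPM in B2, 777 in F11, 14.5 in E8, 0.398 in H2 and 0 in D10. The first 2 of these were the highest of all 46 wells, and the next was 90.4 CPM in D7, a Prl-led well. D10 and H2 had Pomc at 51676 and 59274 CPM with Tbx19 below the limit, whereas Pomc was 356901 CPM in E8, 298862 in B2 and 180795 in F11. F11 was also the well with the most globin, at a summed 81441 CPM of Hbb-bs and Hba-a1, against 19.9 CPM for the median Pomc-led well. In B2, where Tbx19 was higher still, globin was 0.189 CPM.

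Outside the Pomc-led wells, the highest Tbx19 was in D7 (90.4 CPM), H12 (71.8) and G10 (48.0). D7 and G10 had Pomc at 70823 and 35848 CPM beneath a higher Prl, while Pomc in H12 was 2312 CPM. The 10 wells with Tbx19 at 10 CPM or more had a median Pomc of 21884 CPM against 4140 in the other 36. Over all 46 wells rho between Tbx19 and Pomc was 0.31 and r of the log2 levels was 0.47, which became 0.33 without the 2 wells farthest from the median Tbx19.

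Pax7, the melanotrope factor, was found in 3 wells, at 37.1 CPM in D7, 25.1 in E8 and 4.47 in B3. These rested on 32, 33 and 2 counts. Tbx19 was found in each of these 3 wells as well. H7, a deeper well, also held 2 counts of Pax7, at 0.829 CPM and so below the limit, with Tbx19 at 0. E8 had the highest Pomc of the 46 wells and the highest Pcsk2, the convertase that melanotropes use to cut the Pomc product further, at 1568 CPM. Its Pou1f1 count was 0, and Crhr1, the corticotropin releasing hormone receptor of corticotropes, was also at 0. B2 held the reverse of this, with Crhr1 at 313 CPM, the highest level, Pcsk2 at 33.2 CPM and Pax7 at 0. The other Pomc-led wells, F11, H2 and D10, had Pax7 at 0 and did not divide cleanly in this way. F11 had Crhr1 at 0 and Pcsk2 at 283 CPM, and H2 had both, at 49.4 and 276 CPM. D10 was nearer to B2, with Crhr1 at 145 and Pcsk2 at 44.9 CPM, but its Tbx19 was 0. D7 was led by Prl and carried Pou1f1 at 306 CPM beside Pax7, Tbx19 and Pomc.

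Neurod1, the partner of Tbx19 in corticotropes, was at 10 CPM or more in 6 wells. Its level was 189 CPM in F4, 77.1 in F11, 46.7 in E1, 34.6 in D10, 21.3 in H2 and 19.1 in D3. Pomc in these wells was 33.8 CPM in F4 and between 18658 and 180795 CPM in the other 5. Neurod1 was thus present in D10, H2 and E1, wells rich in Pomc where Tbx19 was below 1 CPM, and was at 0 in B2 and E8, where Pomc was highest. Both factors reached 10 CPM together only in F11. Spearman's rho between Neurod1 and Pomc was 0.29 over the 46 wells, and Cerkl shares exon bases with Neurod1 on the same strand, so reads could be assigned to either gene. Cerkl held 2180 counts and Neurod1 1765.

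**Figure D3:**
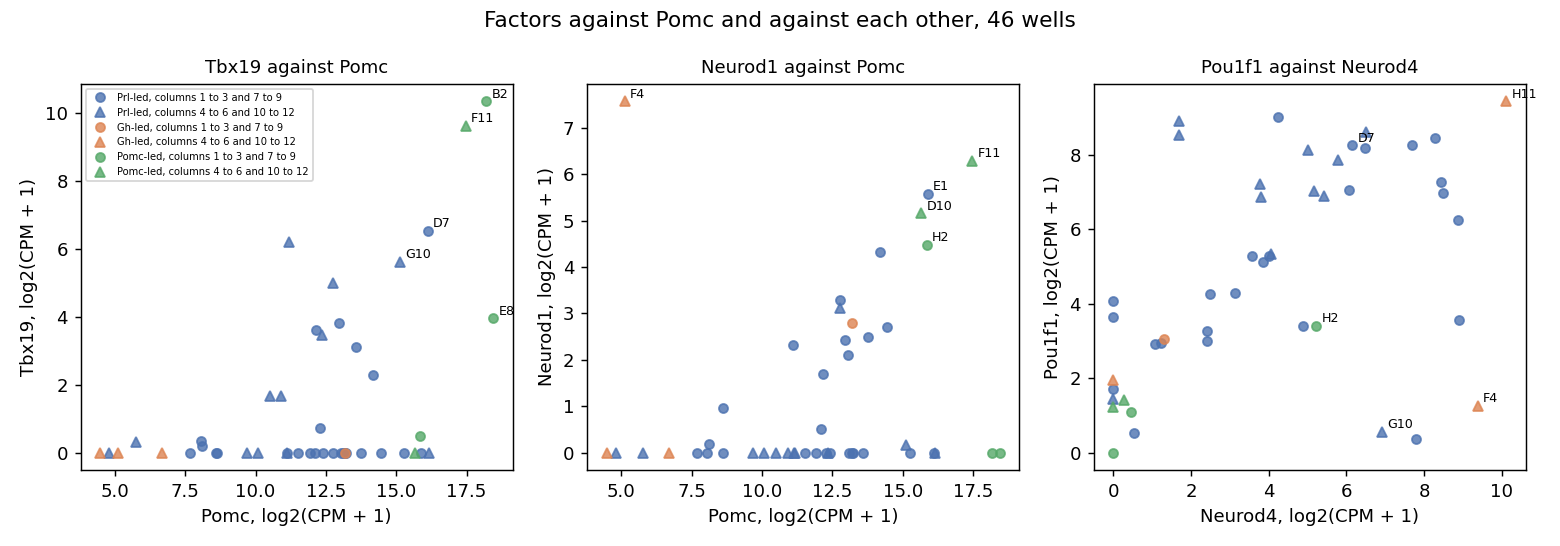
Tbx19 and Neurod1 (y axes) against Pomc (x axis), and Pou1f1 against Neurod4, as log2(CPM + 1), with 1 point a well coloured by leading hormone and shaped by plate columns. B2 and F11 stand apart in Tbx19, F4 has the highest Neurod1 with little Pomc, and H11 is at the top of both Pou1f1 and Neurod4.

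Neurod4, the somatotrope maturation factor, was found in 32 of 37 Prl-led, 3 of 4 Gh-led and 1 of 5 Pomc-led wells. Its median was 15.7 CPM in Prl-led wells. In the Gh-led wells it was 1103 CPM in H11 and 662 in F4, but 1.47 in C9 and 0 in B12, although C9 had the highest Gh at 307675 CPM. Among Pomc-led wells H2 had 36.1 CPM and the other 4 were below 1 CPM. Across wells Neurod4 and Pou1f1 had rho = 0.48 (r = 0.48, and r = 0.41 without the 2 wells farthest from the median Pou1f1). Spearman's rho was 0.62 in the first set of plate columns and 0.25 in the second, and 22 wells had both at 10 CPM. Wells with Neurod4 at 100 CPM or more were deeper, with a median of 5122246 gene counts against 770765, and had a lower median Gh, 1382 CPM against 11494.

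Nr5a1, the gonadotrope factor, was above 10 CPM in a single well, F4, at 30.0 CPM on 64 counts. The next highest was C11 at 2.20 CPM, and this and the other 4 wells with it rested on 1 or 2 counts each. F4 was led by Gh at 5384 CPM, but it also held Lhb at 1643 CPM, Gnrhr, the gonadotropin releasing hormone receptor, at 63.8 CPM, and the highest Lhx3, Neurod1 and Pcsk1 of all wells. Cga, the subunit that Lhb pairs with, was at 0.469 CPM in F4, and Fshb and Gata2 were at 0. When each hormone was divided by its own median over wells, F4 was led by Lhb. E3 had far more Lhb, 59401 CPM, and Gnrhr at 3060 CPM, yet Nr5a1 there was 1.54 CPM on 1 count, where a single count cannot be told from stray reads. Gata2 passed the limit in H11 alone, at 8.34 CPM on 48 counts, and H9 was the other well with any count, which was 1.

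Pitx1 and Lhx3, the factors of the whole gland, differed in form. Pitx1 was found in 23 of 37 Prl-led, 2 of 4 Gh-led and 2 of 5 Pomc-led wells at medians of 5.34 CPM in Prl-led wells and 0.377 in Pomc-led wells. Lhx3 was found in 7 of 37, 1 of 4 and 3 of 5 wells. Its highest levels were 279 CPM in F4, 131 in E1, 121 in B2 and 99.6 in F6, wells led by Gh, Prl, Pomc and Prl, and its median over all wells was 0. Pitx1 shares exon bases with Gm28760 on its own strand, and Lhx3 with the antisense Gm27196. The sources used here do not state the strand setting of the count.

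**Figure D4:**
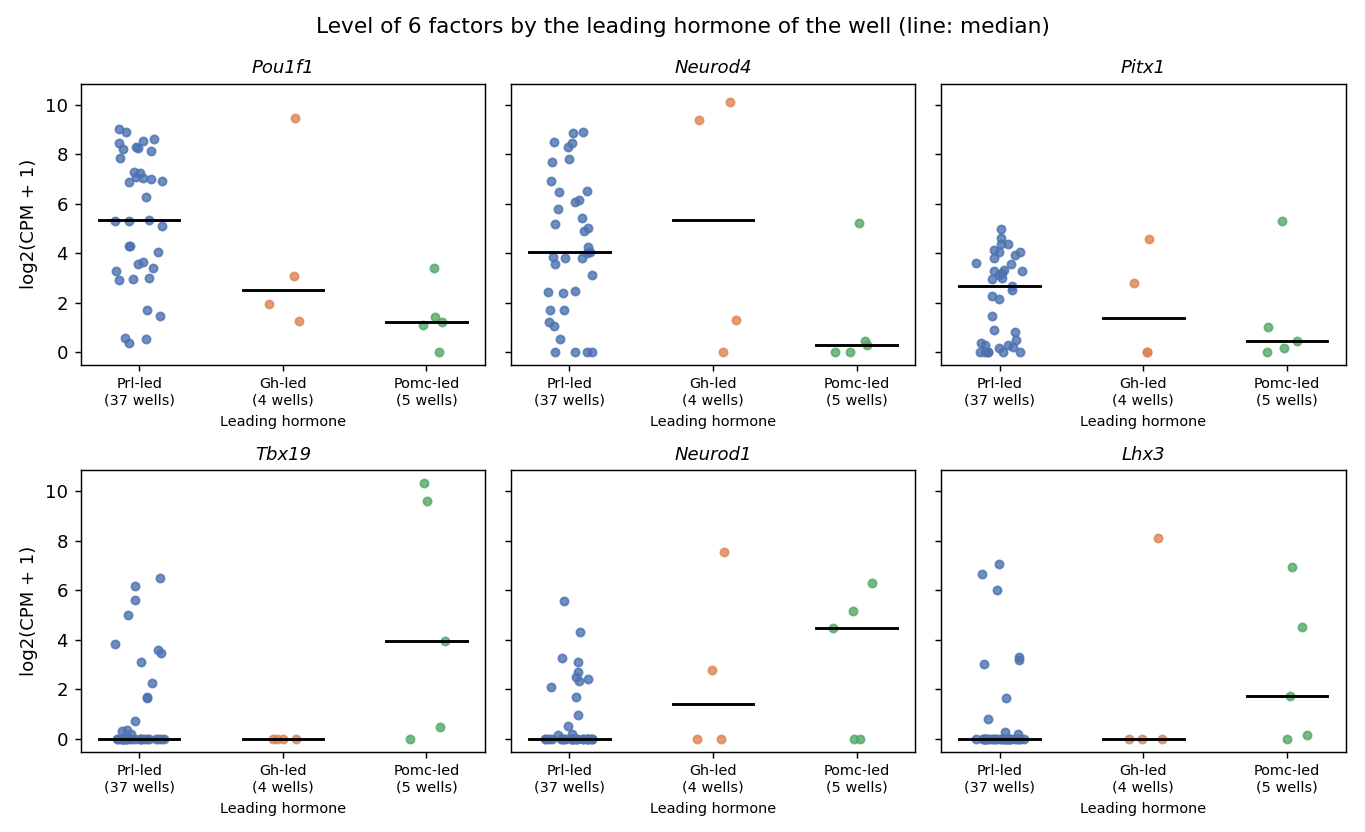
Level of 6 factors as log2(CPM + 1) (y axes) in wells led by Prl, Gh and Pomc (x axes), with 1 point a well and a line at the median. Pou1f1 and Neurod4 were below 2 CPM in 4 of the 5 Pomc-led wells, and the 2 highest Tbx19 points belong to that group.

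Pomc-led and Prl-led wells were compared by the difference of mean log2(CPM + 1), where a gene was counted as higher or lower from a difference of 1. Of 15313 genes with a mean of 1 CPM or more, 24.0% were higher and 9.16% lower in the 5 Pomc-led wells. Nr5a1 and Gata2 were below that mean. Of the 7 factors left, 3 were higher: Tbx19 by 3.67, Neurod1 by 2.32 and Lhx3 by 1.79. Pou1f1 was lower, at -4.00, and so was Neurod4, at -3.15, while Pitx1 was at -0.83 and Pax7 at 0.71. The members' median difference was 0.71, beside 0.04 over all genes.

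Depth differed between these groups, so the same differences were taken in the 25 wells with 1000000 or more gene counts, which hold all 5 Pomc-led and 17 Prl-led wells. There Pou1f1 was at -3.17, Neurod4 at -4.08, Tbx19 at 4.09, Neurod1 at 2.61 and Lhx3 at 1.06, while Pitx1 turned to 0.34. Within the 2 sets of plate columns Pou1f1 (-3.44 and -5.13), Neurod4 (-2.55 and -4.01) and Tbx19 (4.10 and 2.81) kept their directions. Lhx3 did not, being 3.80 in the first set and -1.40 in the second, and Neurod1 was 0.35 and 5.45. Without B2 the difference of Lhx3 was 0.72, below the limit, and that of Tbx19 was 2.31. Without F11 the Tbx19 difference was 2.49 and that of Neurod1 1.55. Pitx1 was at -1.81 without D10, past the limit, and Pax7 at -0.23 without E8. Between the plate column sets themselves, where 20.9% of genes were higher and 5.96% lower in columns 4 to 6 and 10 to 12, 0 of the 7 factors were higher and 0 were lower. Pou1f1 came nearest to the limit, at 0.94, with a median of 119 CPM in columns 4 to 6 and 10 to 12 against 15.7 CPM. It stood at 100 CPM or more in 10 of 17 wells there and in 8 of 29 wells of the first set.

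Among the hormones and receptors, 11 passed the filter, and Crhr1, Gnrhr, Pcsk1 and Pcsk2 were higher in Pomc-led wells beside Pomc itself. The difference of Gnrhr rested on H2 and went from 1.18 to -0.26 without it. Lhb, Cga and Gh were lower beside Prl. The groups were formed from Pomc and Prl, so the differences of these 2 follow from the grouping. Gh and Lhb also entered that rule. The call on Cga ended without D10, at 0.03, or without F11, at -0.23, and Lhb ran from -3.32 without H2 to -1.18 without D10. Of 26 other pituitary factors, 20 were found in at least 1 well and 8 in 23 or more. Zbtb20, needed for lactotropes, was found in 43 wells. Hesx1, Lhx4, Otx2, Sox2 and Nr0b1, mostly factors of the developing gland or of stem cells, were below 1 CPM in every well. Of the 19 that passed the filter, 7 were higher in Pomc-led wells, among them Isl1, Egr1, Eya1, Zbtb20 and Stat3, and Msx1 was lower, with a median difference of 0.63. Isl1 was found in 1 Pomc-led well, H2, and its difference of 1.20 became -0.31 without it. Stat3 went from 1.79 to 0.99 without F11, below the limit, and Egr1 from 2.52 to 1.58 without B2.

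Co-detection asked how often factors of different lineages were read from the same cell. A well held a median of 3 of the 9 factors, from 1 to 6. Pou1f1 was found with Tbx19, Nr5a1 or Pax7 in 17 of 46 wells (37.0%, 23.2 to 52.5), without them in 25, and was below the limit in 2 wells that held another lineage factor, E8 and G10. Another 2 wells held neither. The partner was Tbx19 in 12 wells, Nr5a1 in 6 and Pax7 in 2. Over all 46 wells Pou1f1 was found in 42 (91.3%). It was in 12 of the 14 wells with Tbx19 (85.7%), 6 of 6 with Nr5a1 and 2 of 3 with Pax7. The 37.0% thus mainly counts how often another lineage factor was found. In 10 of the 17 wells the partner rested on 3 counts or fewer, and the lower of the pair stood at a median of 13.3% of the higher, from 0.0879% in B2 to 66.7% in A2. Pou1f1 was the higher one in 13.

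**Figure D5:**
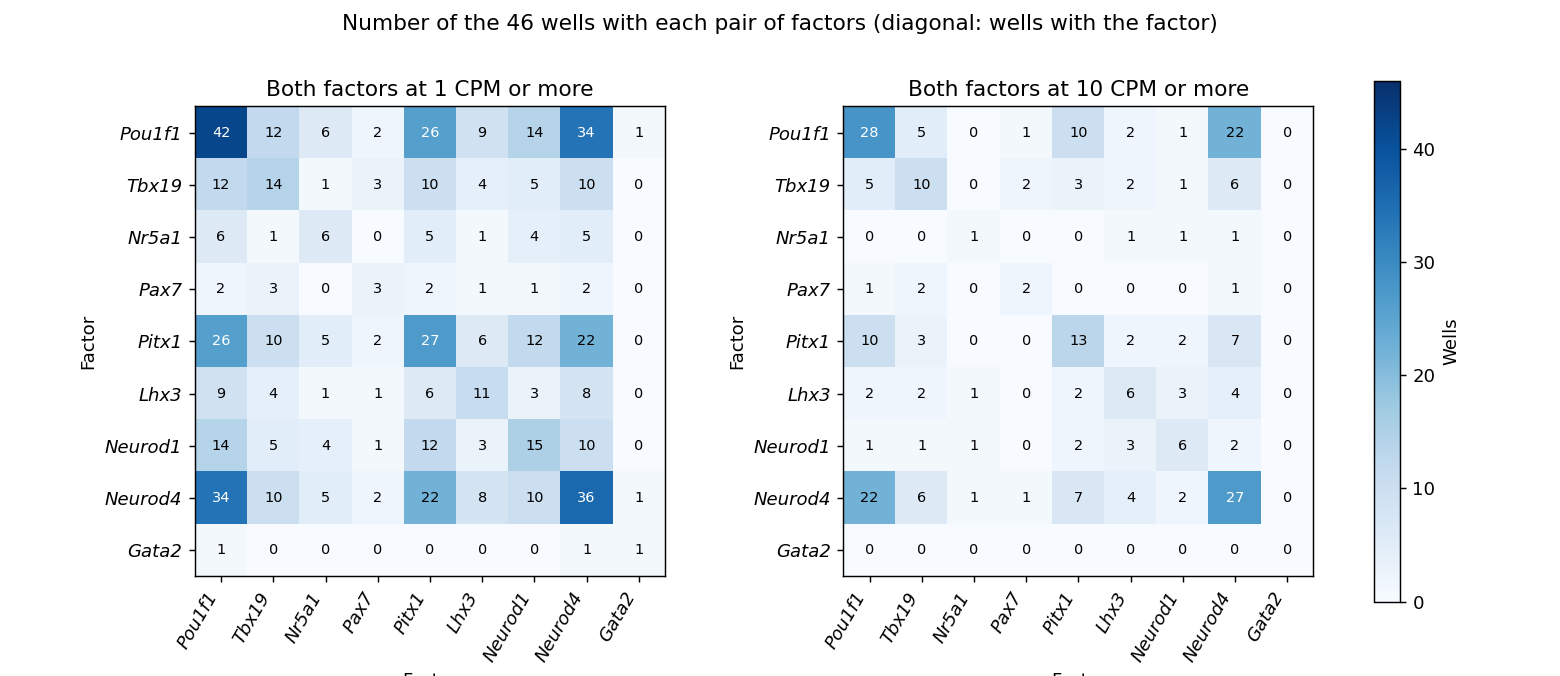
Number of the 46 wells in which both factors of a pair (x and y axes) stood at 1 CPM or more (left) or at 10 CPM or more (right), with the wells of each single factor on the diagonal. Pou1f1 and Tbx19 met in 12 wells at 1 CPM and in 5 at 10 CPM, while Pou1f1 and Neurod4 met in 34 and 22.

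At 10 CPM, 5 wells (10.9%, 3.62 to 23.6) held Pou1f1 with a factor of another lineage. They were B3, D7, F12, H6 and H12, all led by Prl, each with Tbx19 and D7 with Pax7 too. At this limit Pou1f1 was in 28 of all 46 wells (60.9%) and in 5 of the 10 with Tbx19. At 100 CPM 0 wells held Pou1f1 with another lineage factor, with 18 holding Pou1f1, 2 holding Tbx19 and 26 holding neither. The share was 15.2% when wells were thinned to 100000 gene counts and 20.0% (6.83 to 40.7) in the 25 deepest wells. In the plate column sets it was 34.5% and 41.2%, and without the tenth of wells with the most genes, left out in place of a doublet call, it was 36.6%. Counting Pou1f1 only above its level in H4, which leaves out B2, F11 and F4, gave 14 wells (30.4%, 17.7 to 45.8).

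D7 and H12 were the clearest of these wells, with both factors on many counts. D7 had Pou1f1 at 306 and Tbx19 at 90.4 CPM, the latter on 78 counts, and H12 had 119 and 71.8 CPM, the latter on 268 counts. H12, with 10815 genes detected, was in the tenth of wells left out in place of a doublet call. D7, with 6950, was not. In A2, where the levels were nearest to each other, Tbx19 rested on 3 counts. Globin was higher in the 17 wells than in the other 29, with a median of 198 CPM against 26.9, and so was the sum of 6 macrophage markers, 61.0 against 20.0 CPM. The macrophage sum was 345 CPM in H12 and 221 in D7, and globin was 50.3 and 17.6 CPM. Only 1 of the 6 macrophage markers stood at 100 CPM or more in each of these wells. In F11, also among the 17, the sum was 331 CPM with C1qa, C1qb, Tyrobp, Ptprc and Csf1r each below 1 CPM, which leaves Cd68. A high sum can thus rest on 1 marker. The part of globin and of these markers in the co-detection was not tested.

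Agreement of factor and hormone was read from the highest of Pou1f1, Tbx19 and Nr5a1 per exon length in each well. It belonged to the lineage of the leading hormone in 41 of 46 wells (89.1%, 76.4 to 96.4). Prl or Gh led 41 of the 46 wells, so Pou1f1 on top in every well would match as many. Pou1f1 was the leading factor in 35 of 37 Prl-led wells and in 3 of 4 Gh-led wells, and Tbx19 in 3 of 5 Pomc-led wells. The 5 wells that differed were A2 and G10, led by Prl with Tbx19 on top, D10 and H2, led by Pomc with Pou1f1 on top, and F4, led by Gh with Nr5a1 on top. The leading factor was Pou1f1 at or below its CPM in H4 in 4 wells, at 0.941 TPM in H4 itself, 0.635 in D10, 0.201 in E1 and 0.107 in H9, of which D10 differed from its hormone and the other 3 did not. Without these 4 wells the lineages were the same in 38 of 42 (90.5%, 77.4 to 97.3). Pou1f1 on top in every well would again match as many. In H2 Pomc was at 59274, Prl at 40662 and Cga at 41215 CPM, with Isl1 at 187 CPM, its highest level. Pomc and Prl were found in all 46 wells and Cga is shared by lineages, so these levels alone do not tell lineages apart. H2 also held Tshb at 49.8 CPM, its highest level, Gnrhr at 154, Lhb at 378 and Crhr1 at 49.4 CPM. Fshb, Drd2, Trhr and Avpr1b were at 0 there. Whether H2 held more than 1 lineage was not tested. H2 was also the deepest well and had the most genes detected, 12871.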

How the data were processed

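Single-cell RNA-seq libraries were prepared on a Fluidigm C1 circuit with SMART-Seq v4 and Nextera. Estimated counts of reads for each gene were deposited by the authors as a single table of 56 wells, with 92 ERCC entries and no depth scaling, and 0 of its columns were left unmapped. The submitters' processing notes name STAR 2.5.1b, featureCounts 1.5.0-p1 and mm10. The annotation release and the strand and multi-mapping settings are not given in the sources used here. Of the values above 0, 33.5% were not whole (tolerance 1e-09), so reads were divided between features, and among the 9 factors this touched Pou1f1 in 3 wells.

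Symbols, positions and exon lengths came from GENCODE M21 on GRCm38, and 46488 of 47069 identifiers matched. CPM was calculated without the spike-ins over wells with 100000 or more gene counts, and TPM from exon lengths. Shares carry exact Clopper-Pearson 95% intervals, and by counting error alone a count of 0 allows up to 3 counts. All wells belong to 1 sample, so nothing was tested and p-values are absent. Doublets were not called, and the tenth of wells with the most genes was left out as an alternative. Other alternatives were count and CPM limits, thinning, pseudocounts of 0.1 and 10, filters, plate columns, spike-in share, leading hormone per length or relative to its own median, and wells H4, F6 and C11. Raising the limit for Pou1f1 to its level in H4, and leaving out each Pomc-led well in turn, were chosen after seeing the data. Python 3.11.15, numpy 2.4.6, scipy 1.17.1, pandas 2.3.3 and matplotlib 3.10.9 were used, and the scripts were tested on simulated data.

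The genes named were the 9 factors, 15 hormones, receptors and convertases, 26 other pituitary factors, and for each factor found in 10 or more wells the 3 genes most like it. Some genes of these lists are not reported here. Single wells were named where they were highest for a factor, co-detected lineages or went against the leading hormone. Members and lists were chosen with earlier results of these data known. Promoters came from RefSeq (GRCm38.p6).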

Additional observations from a re-analysis of the deposited data

Results flagged for a closer look

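The 10 wells with fewer than 100000 gene counts were not used in the comparisons, yet 8 of them held Pou1f1 above the 3 counts that a count of 0 allows. The counts were 4 in A6, 6 in B4, 9 in B5, 5 in D11, 34 in D12, 8 in D4, 11 in D5 and 29 in E6, which came to between 42.7 and 478 CPM. Pitx1 was above that limit in D12, with 5 counts, and in E6, with 4 counts. All 8 wells were led by Prl, and their spike-in shares ran from 31.7% to 74.9%.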

How the results depend on the processing

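Wells are cells of 1 culture, so the values describe these libraries and hold no spread between animals. By counting error alone, a count of 0 allows up to 3 counts. This is 2.52 CPM at the median depth of 1192620 gene counts and 27.0 CPM in the shallowest well, so low factors can be missed. Co-detection of Pou1f1 with another lineage, 37.0% of wells, moved to 13.0% with at least 5 counts, 10.9% at 10 CPM, 0% at 100 CPM, 15.2% after thinning and 20.0% in wells with 1000000 or more gene counts. Pou1f1 in Prl- or Gh-led wells, 92.7%, moved to 100% at 1 count, 68.3% at 10 CPM, 43.9% at 100 CPM and 75.6% after thinning. The median of 3 factors per well became 1 at 100 CPM. Of the genes higher in Pomc-led wells, 3679 became 1817 with a pseudocount of 10. Of the genes lower, 1403 became 2638 and 239 with pseudocounts of 0.1 and 10, and 3458 within plate columns 4 to 6 and 10 to 12. Among alternatives for these and the other main results, 63 stayed within their interval or within 1.5 times and 14 moved, and for single factors and correlations 114 stayed and 33 moved. In the wells with 1000000 or more gene counts, rho of Lhx3 with Pomc changed sign from -0.09 to 0.13 and rho of Tbx19 with Neurod1 from 0.01 to -0.04. The Pomc-led minus Prl-led difference of Lhx3 changed sign within plate columns 4 to 6 and 10 to 12, and that of Pitx1 in the deepest wells. Limits and thinning act by construction, while the cause of the other moves was not tested. With the leading hormone taken relative to its own median, 8 wells were led by Pomc, 5 of them with Tbx19. No paired analysis was possible because the wells form 1 group.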

Other observations

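The genes whose level was most like that of each factor were read by Spearman rho over the 46 wells, among 8150 genes, as a description. For Pou1f1 they were Asb4 (rho = 0.73), Gm10131 (0.67) and Creb3l1 (0.66), and Neurod4, with a rho of 0.48, was not among them. For Neurod4 they were Greb1 (0.69), an estrogen-responsive gene, Fcf1 (0.69) and Ccdc141 (0.67). Pitx1 was most like Zfp780b (0.71), Zfp444 (0.67) and Tut1 (0.66), and its own level fell as depth rose. Tbx19 was most like Mettl1 (0.59), Retsat (0.58) and Eif2d (0.58), Neurod1 like Sema4d (0.63), Cstf1 (0.62) and Fam20c (0.61), and Lhx3 like Micu2 (0.62) and Tmem41b (0.61). The last 3 factors were found in 15 wells or fewer, and wells without a factor tie at 0.

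C10 and C11 were the most alike of 1035 pairs of wells, with r = 0.97 of log2(CPM + 1) against a median of 0.63, and both were led by Prl with high Pou1f1. Leaving out C11 gave a co-detection share of 35.6%.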
